A study of Mus musculus with 12 samples.

Results

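Lef1, Satb1, Bach2, Foxp1, Foxo1, Id2 and Id3 are transcription regulators known for their part in the resting state of T cells and in its loss on activation, and their levels were read here in regulatory T cells (Tregs) of adipose tissue and spleen. All probes that the deposited array annotation pairs with these 7 symbols were taken, 15 of the 45281 probes on the array. Of these, 13 were above background on at least 3 of the 12 arrays, among 22833 such probes in all, and every gene kept at least 1 probe. Lef1 had 4 probes, Id2 had 3, Satb1, Foxp1 and Foxo1 had 2 each, and Bach2 and Id3 had 1 each. One probe of Foxp1 and one of Foxo1 were too dim to be kept.

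The 12 single-colour Illumina arrays form 4 groups of 3. Per the labels, all mice were C57BL/6 on a high fat diet and all carried Foxp3Cre, also named Foxp3-YFP-Cre, in which the Foxp3 promoter drives the Cre recombinase. Control mice carried Foxp3Cre alone, and Tbet flox mice carried a floxed Tbx21 gene (which codes for T-bet) as well, so that Cre can delete it in Foxp3-expressing cells. The Tregs were taken out of perigonadal adipose tissue (PGWAT) or spleen, and no label gives an age, a sex or a sorting gate. The control mice thus share the Cre transgene, the strain and the diet with the Tbet flox mice, and no group lacks Cre or was kept on another diet.

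Quiescent T cells keep a transcription programme of their own. Lef1 is a DNA-binding partner of beta-catenin that shapes young and resting T cells, Satb1 organises chromatin in thymocytes and is restrained by Foxp3 in Tregs, and Bach2 represses genes of effector differentiation. Foxp1 and Foxo1 are forkhead factors that hold T cells in quiescence, and Foxo1 is moved out of the nucleus when antigen and growth factor signals activate the kinase Akt. Id2 and Id3 lack a DNA-binding region and block the E proteins, which bind the E box, and in T cells Id2 is associated with effector and tissue cells and Id3 with resting and memory cells.

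The promoters of the 4 genes with a probe that differed between the tissues are shown because these are the genes on which the comparisons turn. Each line gives the 250 bases before the outermost RefSeq start of the gene in GRCm38.p6, 5′ to 3′ on the strand of the gene, and capitals mark the E box (CANNTG). Lef1 lies at chr3:131110047-131110296 on the plus strand, Foxo1 at chr3:52268087-52268336 on the plus strand, Satb1 at chr17:51833291-51833540 on the minus strand and Id2 at chr12:25096093-25096342 on the minus strand.
Lef1: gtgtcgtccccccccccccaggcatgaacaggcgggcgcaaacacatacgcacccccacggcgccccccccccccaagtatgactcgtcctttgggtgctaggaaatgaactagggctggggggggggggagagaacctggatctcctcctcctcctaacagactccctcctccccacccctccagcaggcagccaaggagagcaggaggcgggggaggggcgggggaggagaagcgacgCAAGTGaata
Satb1: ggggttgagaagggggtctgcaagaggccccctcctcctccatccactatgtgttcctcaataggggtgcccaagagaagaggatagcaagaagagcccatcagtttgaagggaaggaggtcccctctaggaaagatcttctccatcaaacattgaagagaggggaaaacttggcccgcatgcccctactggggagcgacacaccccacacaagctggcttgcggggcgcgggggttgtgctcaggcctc
Foxo1: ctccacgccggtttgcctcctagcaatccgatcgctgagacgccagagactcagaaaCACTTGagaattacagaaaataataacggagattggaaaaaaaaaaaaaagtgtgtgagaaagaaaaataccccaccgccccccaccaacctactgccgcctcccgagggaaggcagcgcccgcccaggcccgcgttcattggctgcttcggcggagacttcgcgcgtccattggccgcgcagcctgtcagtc
Id2: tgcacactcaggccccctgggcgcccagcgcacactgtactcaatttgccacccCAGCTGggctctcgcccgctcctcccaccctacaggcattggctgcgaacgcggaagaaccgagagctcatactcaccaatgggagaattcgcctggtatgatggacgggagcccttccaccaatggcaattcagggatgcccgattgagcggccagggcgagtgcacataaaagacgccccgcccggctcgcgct

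The windows of Lef1, Foxo1 and Id2 each held 1 E box and that of Satb1 held 0. The window of Foxp1 also held 1, and those of Bach2 and Id3 held 0. An E box was present in 66.2% of the 32851 windows of the same length, and its presence in 4 of these 7 genes is no more than a common match. On both strands, 0 matches were found in the 7 windows to TGTTTAC (a forkhead core, in 3.17% of all windows), CTTTGAT (a TCF and LEF core, in 3.21%) and AGGTGTGA (a T box, in 1.12%). These are matches of letters only and were not read as binding sites.

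Levels below are normalized log2 intensities, so that 1 unit is a doubling of signal, and they are set against each other only within a probe. The precision was that of 3 arrays in each group. The PGWAT arrays lay further apart than the spleen arrays, with correlations across probes of 0.753 to 0.784 among PGWAT controls and 0.806 to 0.859 among PGWAT Tbet flox arrays, against 0.975 to 0.989 within the spleen groups. Between 11252 and 17090 probes per array were above background at a detection p under 0.01. Each tissue lay on a chip of its own, so tissue and chip cannot be told apart. The labels do not say whether the arrays of a group came from separate animals, so p-values cover only the spread among these arrays. In tissue samples of this kind, fewer Tregs in the sample and less RNA per Treg cannot be told apart. Foxp3, by its brightest probe, was above background on all 12 arrays, between 5.40 (PGWAT control 1) and 9.47 (PGWAT control 3). Tbx21, the floxed gene, was dim and measured 4.61, 7.37 and 4.94 on the PGWAT control arrays, 8.41, 4.85 and 4.54 on the PGWAT Tbet flox arrays, 4.79, 5.99 and 4.93 in spleen control, and 4.93, 4.96 and 4.70 in spleen Tbet flox. Its groups overlapped in both tissues (limma adjusted p = 0.98 in PGWAT and 0.637 in spleen), and the files do not say whether its probe lies in the floxed part, so it does not check the labels.

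**Figure D1:**
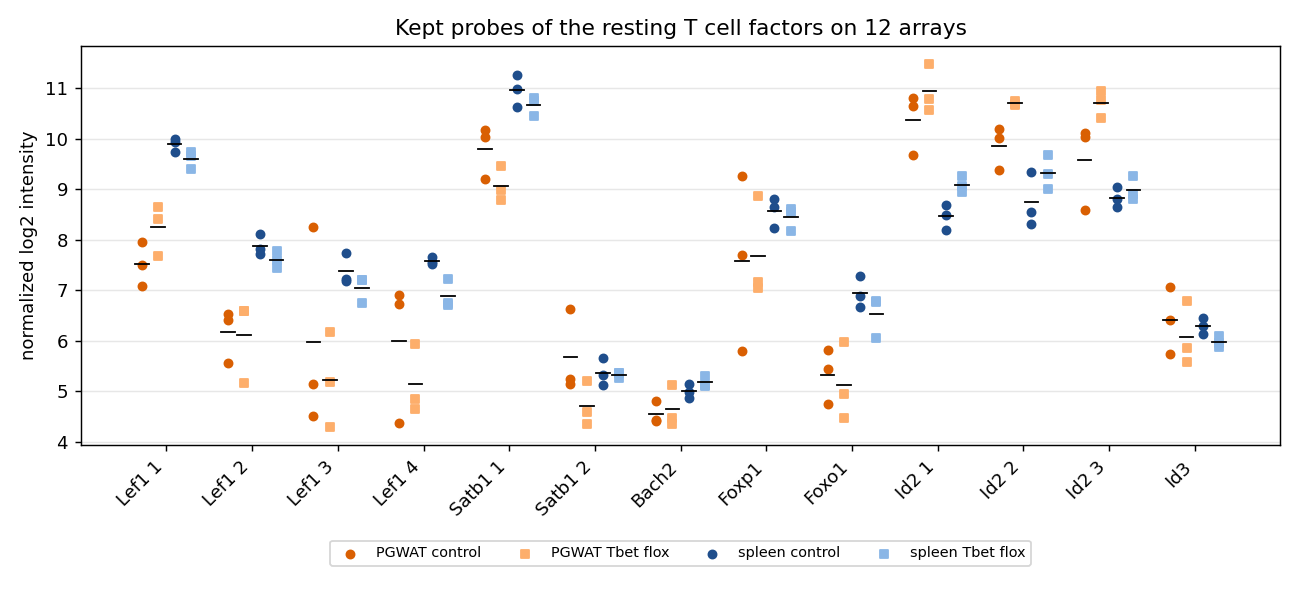
Normalized log2 intensity (vertical axis) of the probes of the 7 factors on each of the 12 arrays; points are arrays, coloured by group, and the horizontal lines are group means. The points of Lef1 probe 1 lie between 7.09 and 8.65 in PGWAT and between 9.41 and 9.99 in spleen, and those of Id2 probe 1 lie above in PGWAT.

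Adipose tissue against spleen is the first comparison, made in control and in Tbet flox mice from different arrays. In control mice Lef1 and Foxo1 were lower in PGWAT and Id2 was higher, each by 1 or more probes. In Tbet flox mice Lef1 and Satb1 were lower and Id2 was higher. Of the 13 kept probes, 5 passed in control mice (1 higher, 4 lower), where 13.8% of all 22833 probes passed (6.16% higher, 7.64% lower). In Tbet flox mice 6 passed (2 higher, 4 lower), where 8.63% of all probes passed (3.92% higher, 4.71% lower). A probe passed when its limma p, adjusted by Benjamini and Hochberg over all kept probes, was under 0.05. The median difference over the 13 probes was -0.98 in control and -0.75 in Tbet flox mice, beside -0.12 and -0.08 over all kept probes. Single arrays moved these counts. In control mice 2 probes passed without PGWAT control 1, and 3 without spleen control 1 or 3. Without any 1 of the PGWAT Tbet flox arrays 3 passed as well, though these are not in the groups compared. They share the estimate of the spread. The differences also moved slightly without them, that of Foxo1 from -1.62 to between -1.59 and -1.65. The 6 calls in Tbet flox mice became 1, 1 and 0 without PGWAT Tbet flox 1, 2 and 3. The groups did not overlap for 8 of the 13 probes in control mice (2 higher, 6 lower), beside 35.7% of all probes (12.8% higher, 22.9% lower). For Tbet flox mice there was no overlap for 10 (3 higher, 7 lower), beside 37.7% of all probes (13.8% higher, 23.8% lower).

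Lef1 was lower in PGWAT in both genotypes by 3 of its 4 probes. Its brightest probe, called probe 1 here, measured 7.50, 7.95 and 7.09 on the PGWAT control arrays and 9.94, 9.74 and 9.99 on the spleen control arrays. All PGWAT values lay below all spleen values, and the difference was -2.38 ± 0.33 log2 units (SE, n = 3 against 3; limma adjusted p = 0.00044), a level 5.19-fold lower. The Tbet flox arrays measured 7.68, 8.42 and 8.65 in PGWAT and 9.41, 9.66 and 9.74 in spleen. These groups did not overlap either, and the difference was -1.35 ± 0.33 (limma adjusted p = 0.0231), 2.56-fold lower. The difference of the 2 tissue differences was 1.02 with a 95% interval of 0.01 to 2.03, and it did not pass (limma adjusted p = 0.481). In order of level, spleen control (9.89 ± 0.13, SD) and spleen Tbet flox (9.61 ± 0.18) were neighbours that did not differ past the threshold, as were PGWAT Tbet flox (8.25 ± 0.51) and PGWAT control (7.51 ± 0.43).

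Lef1 probe 2 measured 5.56, 6.41 and 6.54 in PGWAT control and 7.81, 7.72 and 8.12 in spleen control, a difference of -1.72 ± 0.39 (limma adjusted p = 0.0106). On the Tbet flox arrays it was at 5.16, 6.60 and 6.59 in PGWAT and 7.44, 7.78 and 7.61 in spleen, a difference of -1.49 ± 0.39 (limma adjusted p = 0.0304). Each PGWAT array was again below each spleen array. Probe 4 measured 6.73, 6.90 and 4.37 in PGWAT control and 7.67, 7.52 and 7.56 in spleen control, a difference of -1.58 ± 0.49 (limma adjusted p = 0.0479). Among Tbet flox mice it measured 4.65, 4.84 and 5.93 in PGWAT and 6.71, 6.76 and 7.22 in spleen, a difference of -1.76 ± 0.49 (limma adjusted p = 0.0417). Probe 4 was above background on 2 of 3 PGWAT arrays of each genotype. The PGWAT control 3 array was far below the other PGWAT controls at this probe and was not above background. Without it the difference of probe 4 in control mice was -0.76 (limma adjusted p = 0.35). Without background correction the differences of probe 2 were -1.06 and -0.86 and passed, and those of probe 4 were -0.86, which passed, and -0.81 in Tbet flox mice, which did not (limma adjusted p = 0.0703).

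The same array stood apart in the other direction at Lef1 probe 3, which measured 5.15, 4.52 and 8.26 in PGWAT control and 7.22, 7.18 and 7.74 in spleen control. Probe 3 too was above background on 2 of 3 PGWAT arrays of each genotype. The difference of -1.40 ± 0.65 did not pass (limma adjusted p = 0.177), and without PGWAT control 3 it was -2.53 (limma adjusted p = 0.013). Tbet flox values of probe 3 were 4.29, 6.18 and 5.19 in PGWAT and 6.75, 7.20 and 7.20 in spleen. That difference was -1.83 ± 0.65 with no overlap and did not pass (limma adjusted p = 0.0994), and without PGWAT control 3, which shares the estimate of the spread, it passed at 0.0265. The Lef1 calls in Tbet flox mice were each lost without any 1 of the PGWAT Tbet flox arrays. Leaving out array 1, 2 or 3 gave probe 1 a limma adjusted p of 0.18, 0.0815 or 0.0589, probe 2 one of 0.249, 0.0638 or 0.0685, and probe 4 one of 0.215, 0.172 or 0.0633. The call of probe 4 was also lost without spleen control 1, 2 or 3 or spleen Tbet flox 2 or 3 (limma adjusted p = 0.0511 to 0.0667). In control mice the call of probe 1 held without any single array, and that of probe 2 was lost without PGWAT control 1 (difference -1.41, limma adjusted p = 0.0744). Probe 4 in control mice also lost its call without most other single arrays, with a limma adjusted p of 0.0506 to 0.0771 where an array other than PGWAT control 3 ended it.

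Satb1, by its brighter probe, measured 10.04, 10.18 and 9.20 in PGWAT control and 10.99, 10.63 and 11.27 in spleen control. The groups did not overlap, but the difference of -1.16 ± 0.40 did not pass (limma adjusted p = 0.0709), and without spleen control 2 it was -1.32 and passed (0.0277). Tbet flox values were 9.46, 8.98 and 8.78 in PGWAT and 10.45, 10.75 and 10.80 in spleen. Here Satb1 was lower in PGWAT by 1.59 ± 0.40 log2 units, 3.02-fold (limma adjusted p = 0.0251). Without PGWAT Tbet flox 1, 2 or 3 the limma adjusted p was 0.074, 0.119 or 0.151. The genotype effect between tissues was -0.44 (95% interval -1.65 to 0.77, limma adjusted p = 0.863), so the tissue difference was not shown to differ between the genotypes. Its second probe was dim, with group means between 4.72 and 5.67, and its differences of 0.30 in control and -0.61 in Tbet flox mice did not pass (limma adjusted p = 0.661 and 0.374).

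Foxo1 had 1 kept probe, which measured 5.44, 5.81 and 4.75 in PGWAT control and 7.28, 6.68 and 6.89 in spleen control. It was lower in PGWAT by 1.62 ± 0.50 log2 units, 3.07-fold (limma adjusted p = 0.0483), with no overlap. The probe was above background (detection p under 0.05) on 2 of 3 PGWAT control, 1 of 3 PGWAT Tbet flox and all 6 spleen arrays. Its Tbet flox levels were 4.94, 5.97 and 4.47 in PGWAT and 6.05, 6.78 and 6.77 in spleen, a difference of -1.41 ± 0.50 that did not pass (limma adjusted p = 0.104) and passed without spleen Tbet flox 1 (-1.65, 0.0349). The call in control mice lay at the threshold. It was lost without PGWAT control 1, 2 or 3 (limma adjusted p = 0.119, 0.0748 and 0.204), PGWAT Tbet flox 1, 2 or 3 (0.0612, 0.0633 and 0.0552), or spleen control 1 or 3 (0.0721 and 0.0686), with a difference between -1.30 and -1.85 in these fits. Without background correction the difference was -0.78 (limma adjusted p = 0.0866), and by the authors' processed table -0.79 (0.0857). The other Foxo1 probe was not above background on any array.

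Foxp1, the other forkhead factor, had 1 kept probe and spread widely in PGWAT. It measured 5.79, 9.27 and 7.70 in PGWAT control and 7.04, 7.17 and 8.86 in PGWAT Tbet flox, against 8.65, 8.24 and 8.81 in spleen control and 8.17, 8.61 and 8.55 in spleen Tbet flox. PGWAT control 2 and PGWAT Tbet flox 3 were above all 6 spleen arrays and PGWAT control 1 was the lowest of the 12, so the tissues overlapped in both genotypes. The differences were -0.98 in control (95% interval -2.27 to 0.32, limma adjusted p = 0.323) and -0.75 in Tbet flox mice (-2.05 to 0.54, adjusted p = 0.499). The second Foxp1 probe was above background on 1 of 12 arrays.

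Bach2 was close to background throughout. It measured 4.42, 4.43 and 4.81 in PGWAT control and 4.47, 4.35 and 5.13 in PGWAT Tbet flox, and was above background on 0 and 1 of 3 arrays there. In spleen it measured 4.86, 5.15 and 4.99 in control and 5.11, 5.30 and 5.13 in Tbet flox and was above background on all 6 arrays. The tissue differences of -0.45 and -0.53 did not pass (limma adjusted p = 0.365 and 0.314). Since the probe rose above background on none of the PGWAT control arrays, its level there is only a bound, and that bound of 5.02 lay above the spleen control mean of 5.00, so no fold is given.

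**Figure D2:**
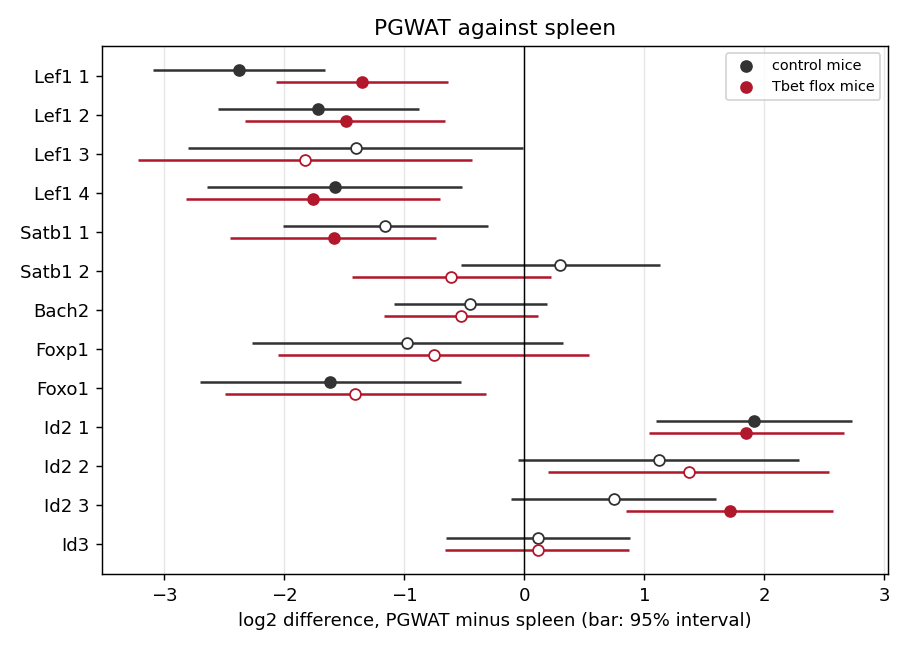
Log2 difference of each kept probe between PGWAT and spleen (horizontal axis; values below 0 are lower in PGWAT) in control and Tbet flox mice; bars are 95% intervals, filled points have a limma adjusted p under 0.05 and open points do not. The points of Lef1 lie between -2.38 and -1.35 and those of Id2 between 0.75 and 1.91.

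Id2 was higher in PGWAT in both genotypes. Its probe 1 measured 10.65, 10.81 and 9.68 in PGWAT control and 8.20, 8.70 and 8.50 in spleen control, a difference of 1.91 ± 0.38 and 3.77-fold (limma adjusted p = 0.00471). The Tbet flox arrays read 10.78, 10.57 and 11.48 in PGWAT and 9.27, 9.06 and 8.94 in spleen, a difference of 1.85 ± 0.38 and 3.62-fold (limma adjusted p = 0.00881). Every PGWAT array was above every spleen array at this probe. The call in control mice held without any single array, and that in Tbet flox mice was lost without PGWAT Tbet flox 3 (1.58, limma adjusted p = 0.0846). The order of the group means was PGWAT Tbet flox (10.94 ± 0.48), PGWAT control (10.38 ± 0.61), spleen Tbet flox (9.09 ± 0.17) and spleen control (8.47 ± 0.25), and in each tissue the genotypes did not differ past the threshold.

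The other Id2 probes measured in the same direction, and 1 of their 4 tissue differences passed. Probe 3 measured 10.76, 10.41 and 10.94 in PGWAT Tbet flox and 9.27, 8.91 and 8.80 in spleen Tbet flox, a difference of 1.71 ± 0.40 and 3.27-fold (limma adjusted p = 0.0184). It lost that call without PGWAT Tbet flox 1, 2 or 3 (limma adjusted p = 0.0958, 0.0608 and 0.114). In control mice probe 3 measured 8.59, 10.04 and 10.12 in PGWAT and 8.65, 8.81 and 9.05 in spleen, where PGWAT control 1 lay below all 3 spleen arrays and the difference of 0.75 did not pass (limma adjusted p = 0.249). Probe 2 measured 9.38, 10.19 and 10.01 in PGWAT control and 8.56, 9.34 and 8.32 in spleen control. Its Tbet flox values were 10.75, 10.69 and 10.67 in PGWAT and 9.69, 9.30 and 9.00 in spleen. Neither pair of groups overlapped, and the differences of 1.12 and 1.37 did not pass (limma adjusted p = 0.202 and 0.139), although the first passed without spleen control 2 (1.41, 0.0377).

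Id3, the second inhibitor of E proteins, did not differ detectably between the tissues. It measured 7.07, 6.41 and 5.74 on the PGWAT control arrays, 6.78, 5.59 and 5.85 on the PGWAT Tbet flox arrays, 6.13, 6.45 and 6.29 in spleen control and 5.87, 5.95 and 6.09 in spleen Tbet flox. The PGWAT arrays lay on both sides of the spleen arrays. The difference was 0.11 in control (95% interval -0.65 to 0.88, limma adjusted p = 0.87) and 0.11 in Tbet flox mice (-0.66 to 0.87, adjusted p = 0.897). All 4 group means lay between 5.97 and 6.41.

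Markers of other cell types moved with the tissue and are given here because the same arrays carry them. Of 13 kept macrophage and monocyte markers, 10 were higher in PGWAT than in spleen in control mice and 4 in Tbet flox mice. Their summed signal was 17943 to 20190 in PGWAT control, 2087 to 12588 in PGWAT Tbet flox, 2965 to 4062 in spleen control and 2497 to 3157 in spleen Tbet flox, and Cd14 was not above background on any spleen array. The 7 kept dendritic cell markers summed to 13649 to 14629, 2789 to 10019, 1417 to 1958 and 1104 to 1558 in the same order. The 4 kept adipocyte markers, Adipoq, Fabp4, Lep and Cidec, summed to 2896 to 8383 among PGWAT controls and 2410 to 4221 among PGWAT Tbet flox arrays, and were not above background in spleen. Fabp4 made up most of these sums, with PGWAT means of 12.07 in control and 11.53 in Tbet flox, beside 5.74 and 4.78 for Adipoq. Between the tissues 3 of the 4 passed in control mice and only Fabp4 in Tbet flox mice. The 6 kept markers of stroma and endothelium summed to 1862 to 8831 and 1627 to 3609 in PGWAT and to 223 to 264 in spleen. Of 9 kept T cell identity genes, 5 were lower in PGWAT in control mice (median difference -1.25), and 2 were lower and 1 higher in Tbet flox mice (median -0.36). Their sums were 3779 to 6654 in PGWAT control, 7309 to 8102 in PGWAT Tbet flox and 7946 to 8698 in spleen. Of 7 kept Treg core genes, Izumo1r was lower in PGWAT in both genotypes (-2.56 and -2.16, limma adjusted p = 0.00453 and 0.0182), Ctla4 was higher in Tbet flox mice, and the others did not pass. No kept marker of B cells (1), CD8 and NK cells (4) or red cells (2) passed between the tissues. The part of these cells in the tissue differences was not tested.

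One PGWAT array was low in macrophage markers. It also had the fewest probes above background at a detection p under 0.01 (11252) and the lowest median signal (82.4) of the 12. PGWAT Tbet flox 3 had a mean macrophage marker level of 6.52, within the range of the 6 spleen arrays (6.46 to 7.37), and a stromal level of 7.89, above all 6 (4.88 to 4.95). On that array Id2 probe 1 was at 11.48, the highest of the 12, and Satb1 probe 1 was at 8.78, the lowest of the 12. At 10.94, Id2 probe 3 was also at its highest of the 12 there. Id2 probe 2 and Satb1 probe 2 were not at such an extreme. Id2 probe 2 was at 10.67 there, below its 10.75 on PGWAT Tbet flox 1, and Satb1 probe 2 was at 5.20, above its 4.36 on PGWAT Tbet flox 1. Lef1 probe 1 was at 8.65, which is below all 6 spleen arrays but the highest of the 6 PGWAT arrays and so the nearest to spleen. Foxo1 was not above background there. The part of other cells or of the dim signal in the levels of this array was not tested.

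**Figure D3:**
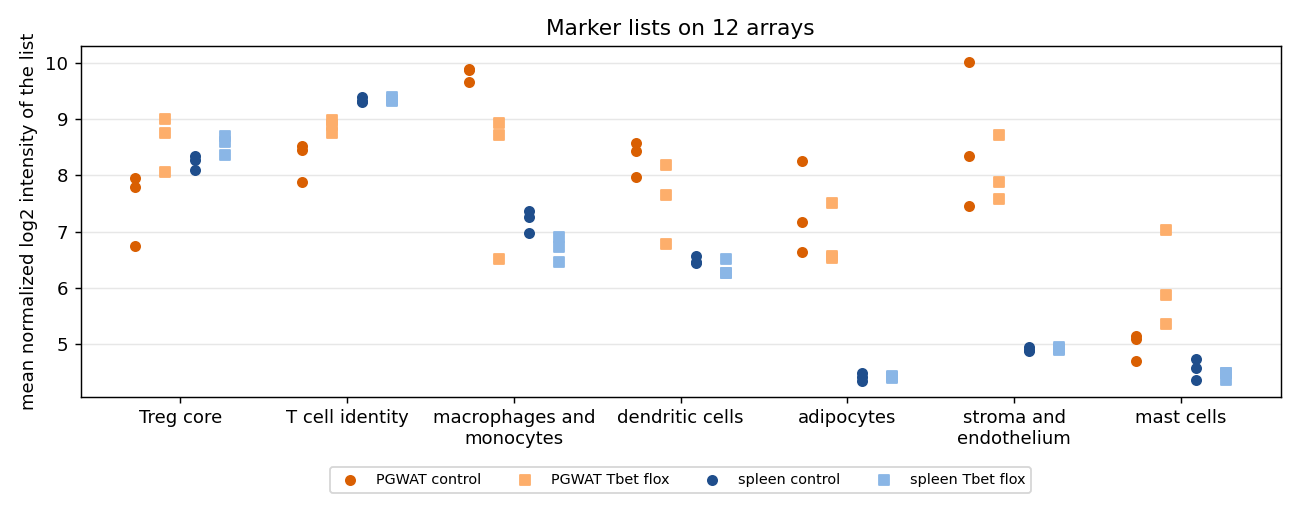
Mean log2 level of the kept markers of each cell type list (vertical axis) on each of the 12 arrays; points are arrays, coloured by group. Macrophage levels reach 9.90 in PGWAT control and 6.52 on PGWAT Tbet flox 3, while adipocyte and stromal levels lie above all spleen arrays on each PGWAT array.

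Tbet flox against control mice in each tissue is the second comparison, which asks how these factors differ where Foxp3-expressing cells carry a floxed T-bet gene. No probe of the 7 genes passed in either tissue. A count of 0 does not show that the genotypes were alike. In PGWAT 0 of 13 passed, where 0.193% of all kept probes did, and 0 of 13 had an unadjusted p under 0.05. In spleen 0 of 13 passed, where 1.57% of all probes did, and 4 had an unadjusted p under 0.05. Of all 22833 kept probes, 2184 in PGWAT and 3988 in spleen had an unadjusted limma p under 0.05. The median difference over the 13 probes was -0.05 in PGWAT and -0.27 in spleen, beside 0.03 and 0.01 over all kept probes. These comparisons share their arrays with the tissue comparisons, so the values are not independent of those above.

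In spleen, Id2 and Lef1 each had a probe whose groups did not overlap. Id2 probe 1, at 9.27, 9.06 and 8.94 in Tbet flox against 8.20, 8.70 and 8.50 in control, measured 0.62 ± 0.16 higher (1.54-fold, limma adjusted p = 0.0642). Without spleen control 2 the difference was 0.73 and passed (limma adjusted p = 0.0494). Id2 probe 2 measured 0.59 ± 0.23 higher (limma adjusted p = 0.195), passed without spleen control 2 (0.89, adjusted p = 0.0388), and probe 3 measured 0.16 higher (adjusted p = 0.695). Lef1 probe 4 was at 6.71, 6.76 and 7.22 in Tbet flox against 7.67, 7.52 and 7.56 in control, a difference of -0.68 ± 0.21 (limma adjusted p = 0.105). The other 3 Lef1 probes had differences between -0.33 and -0.27 with overlapping groups (limma adjusted p = 0.309 to 0.584). Id3 also did not overlap, at 5.87, 5.95 and 6.09 in Tbet flox against 6.13, 6.45 and 6.29 in control, a difference of -0.32 ± 0.15 (limma adjusted p = 0.284). In all, 3 of the 13 probes did not overlap, 1 higher and 2 lower, beside 22.8% of all probes (12.4% higher, 10.5% lower). Satb1 probe 1 (-0.30), Foxo1 (-0.42), Foxp1 (-0.12) and Bach2 (0.18) overlapped between the genotypes, with limma adjusted p of 0.333 to 0.87.

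In PGWAT the intervals were wide. Id2 probes 2 and 3 did not overlap between the genotypes, measuring 0.85 (95% interval -0.74 to 2.43) and 1.12 (-0.04 to 2.28) higher in Tbet flox, with limma adjusted p of 0.821 and 0.54. Those 2 are all the probes without overlap there, both higher, beside 14.2% of all probes (8.28% higher, 5.94% lower). Lef1 probe 1 measured 0.74 higher (-0.23 to 1.70) and Satb1 probe 1 measured -0.73 (-1.89 to 0.42), with limma adjusted p of 0.675 and 0.762. Differences of up to 1.70 log2 units for Lef1 probe 1 or 2.28 for Id2 probe 3 therefore lie within these intervals. On these arrays all 13 macrophage markers measured lower in Tbet flox and none passed (median -1.72). By the brightest kept probe of each gene, 8 of 9 T cell identity genes measured higher (median 0.56), as did all 7 Treg core genes (median 1.15), with none of either list passing. Foxp3 was at 0.81 by that probe, while its probes 2 and 3 measured -0.83 and -0.25 (limma adjusted p = 0.761 and 0.952), so its probes disagree. The part of these cells in the differences was not tested. For the genotype effect between tissues 0 of 13 probes passed, where 0.0526% of all probes did. Lef1 probe 1 alone had an unadjusted p under 0.05 (limma adjusted p = 0.481), beside 2339 of all 22833 kept probes.

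**Figure D4:**
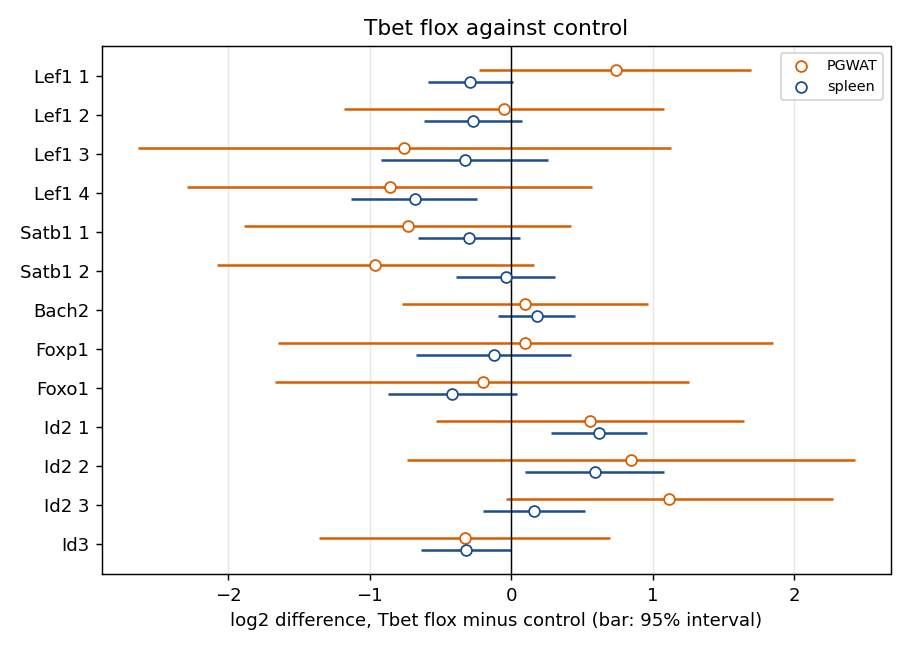
Log2 difference of each kept probe between Tbet flox and control mice (horizontal axis; values above 0 are higher in Tbet flox) in PGWAT and in spleen; bars are 95% intervals and open points mark a limma adjusted p of 0.05 or more, which holds for all of them. In spleen the intervals of Id2 probe 1 (0.28 to 0.96), Id2 probe 2 (0.10 to 1.08) and Lef1 probe 4 (-1.13 to -0.24) leave out 0 and that of Id3 ends next to it, and in PGWAT every interval includes 0.

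Other genes of the resting and naive T cell state were measured beside the 7 factors, each gene by its brightest kept probe. Of 14 listed genes 12 had a kept probe. In control mice 2 were lower in PGWAT, 0 were higher and 10 did not pass, with a median difference of -0.53. Over all kept probes 7.64% were lower in control and 4.71% in Tbet flox mice. Bcl2, which protects resting lymphocytes from death, measured 7.74 in PGWAT against 9.77 in spleen (-2.03 ± 0.46, limma adjusted p = 0.0105). Its other kept probes measured between -2.57 and -0.39 in control and between -2.19 and -0.41 in Tbet flox mice. Not all of them passed (limma adjusted p up to 0.411 and 0.597). Dapl1 was not above background on any PGWAT array of either genotype, so only a bound can be given: it was at least 4.3-fold lower than in spleen, where it measured 7.13 (limma adjusted p = 0.0139). For such a bound, each array of the dimmer group is taken at its weakest signal above background, or at the probe's own value where that is higher. In Tbet flox mice 3 were lower and 9 did not pass (median -0.79): Bcl2 (-2.63, limma adjusted p = 0.00357), Dapl1 (at least 3.49-fold, 0.0448) and Ccr7, the receptor that brings T cells into lymph nodes (-1.81, 0.0218). Without background correction Dapl1 did not pass in control (-1.23, limma adjusted p = 0.0604) or Tbet flox mice (-0.99, 0.148), and Ccr7 was at -1.11 and passed. Ccr7 measured 7.63 in PGWAT control against 8.55 in spleen control and did not pass there. Without PGWAT control 1 the calls of Bcl2 (limma adjusted p = 0.0838) and Dapl1 (0.0523) in control mice were lost, without PGWAT Tbet flox 1 that of Ccr7 (0.194), and without any 1 of the PGWAT Tbet flox arrays that of Dapl1 (0.151 to 0.161). The call of Dapl1 in Tbet flox mice was also lost without PGWAT control 2, spleen control 1, 2 or 3, or spleen Tbet flox 2 (limma adjusted p = 0.0507 to 0.0689).

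Factors of effector and tissue Tregs that passed were all higher in PGWAT. Of 14 listed genes 11 were kept, of which 4 were higher in PGWAT in control and 5 in Tbet flox mice, and 0 were lower (medians 0.95 and 1.45). Over all kept probes 6.16% and 3.92% were higher. Without regard to the threshold, 8 measured higher and 3 lower in control, and 9 and 2 in Tbet flox mice. Batf measured lower in both, at -0.75 (limma adjusted p = 0.2) and -1.24 (0.0503, just short of the threshold). Ikzf2 measured -1.04 in control mice (0.102). Batf and Ikzf2 were named after their values were seen. Pparg, the lipid-sensing nuclear receptor that marks adipose Tregs and is also made by adipocytes and macrophages, measured 7.15 against 4.76 in control mice (2.38 ± 0.45, limma adjusted p = 0.00381) and 8.03 against 5.20 in Tbet flox mice (2.83, adjusted p = 0.002). Bhlhe40, a repressor induced on T cell activation, was 1.94 ± 0.37 higher in control (limma adjusted p = 0.00371) and 2.21 higher in Tbet flox mice (0.00263). Both kept their calls without any single array. In spleen control the Pparg probe was above background on 1 of 3 arrays, and without background correction its differences were 1.11 and 1.58 and passed. Rora, a nuclear receptor of type 2 and tissue lymphocytes, was 1.24 and 1.45 higher (limma adjusted p = 0.0173 and 0.012). Prdm1, which codes for Blimp-1 and is a marker of effector Tregs, was 2.69 higher in control mice (limma adjusted p = 0.015), and measured 5.85 in PGWAT against 5.84 in spleen in Tbet flox mice, while the genotype effect between tissues did not pass (-2.68, adjusted p = 0.31). Gata3 was 1.79 higher in Tbet flox mice (limma adjusted p = 0.0264), with a genotype effect between tissues of 2.23 that did not pass (0.234). The fifth call in Tbet flox mice was Irf4, a factor of T cell activation (1.65, limma adjusted p = 0.048), which is named after its value was seen and lost its call without any 1 of 9 arrays (0.0558 to 0.248). The calls of Rora and Prdm1 in control mice were lost without PGWAT control 2 (limma adjusted p = 0.0802 and 0.0632) or 3 (0.0788 and 0.11). Those of Rora in Tbet flox mice were lost without PGWAT Tbet flox 2 or 3 (limma adjusted p = 0.0815 and 0.103), and that of Gata3 without PGWAT Tbet flox 1, 2 or 3 (0.0855, 0.118 and 0.148). For genotype in spleen, Klrg1, a receptor of differentiated T cells, was 1.33 ± 0.29 higher in Tbet flox (limma adjusted p = 0.0432), a call that was lost without any 1 of the 3 spleen Tbet flox arrays (0.0859 to 0.232), spleen control 1 (0.172) or 3 (0.0675), or PGWAT Tbet flox 1 (0.0529) or 3 (0.0531).

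**Figure D5:**
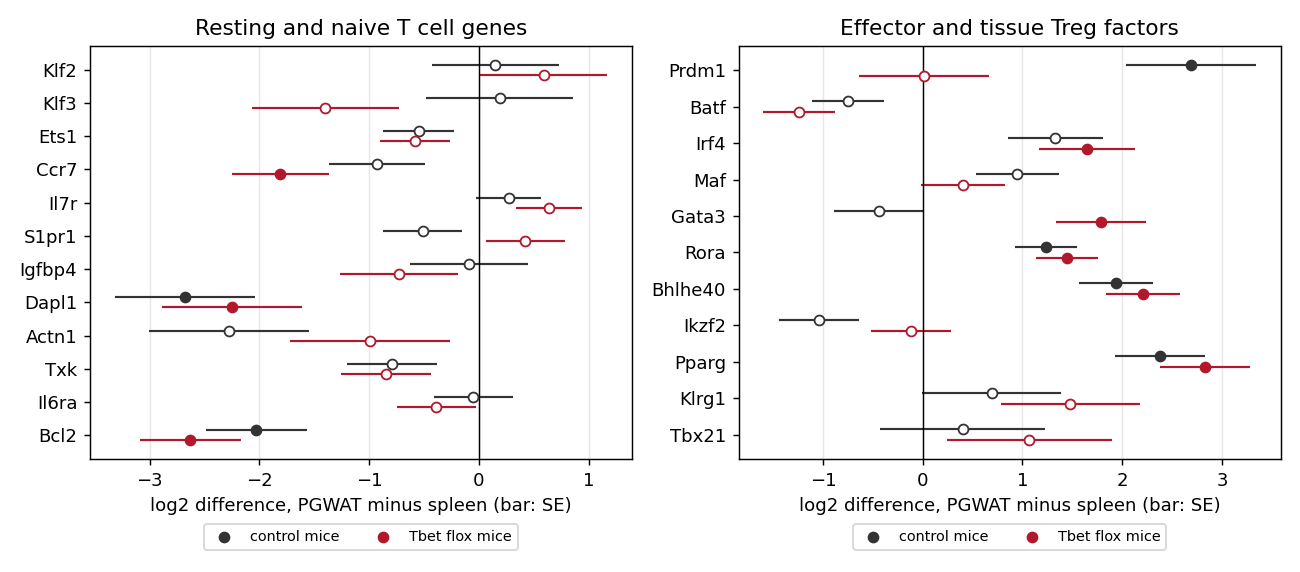
Log2 difference between PGWAT and spleen (horizontal axis) of the kept genes of the resting and naive list (left) and of the effector and tissue Treg list (right) in control and Tbet flox mice; bars are SE, filled points have a limma adjusted p under 0.05 and open points do not. All filled points lie below 0 on the left and above 0 on the right.

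Targets and binding partners of the factors were measured as well. Of 11 FOXO target genes 10 were kept. Irs2, an insulin signalling adaptor that FOXO factors switch on, was higher in PGWAT in both genotypes, with mean levels there of 6.84 in control and 8.73 in Tbet flox mice. Its probe was above background on 1 of 3 spleen control and 0 of 3 spleen Tbet flox arrays. It was 2.19 ± 0.40 higher in control mice (limma adjusted p = 0.0031) and at least 15.8-fold higher in Tbet flox mice (2.89e-05). Without background correction the differences were 0.99 and 2.46, and both passed. Ccng2 was lower in control mice (-1.37, limma adjusted p = 0.0319). In Tbet flox mice Ctla4, the inhibitory receptor of Tregs, was 1.25 higher (limma adjusted p = 0.0282), and Ccr7 and the cell cycle inhibitor gene Cdkn1b (-1.28, adjusted p = 0.0263) were lower. The other 2 Cdkn1b probes measured -0.47 and -0.39 and did not pass (limma adjusted p = 0.559 and 0.622). Il7r, the interleukin 7 receptor gene, measured 0.64 by its brightest of 5 probes (limma adjusted p = 0.211), while its second probe was 1.59 higher (0.00929, named after its value was seen) and the other 3 did not pass. The Irs2 calls held without any single array, and those of Ccng2, Ctla4 and Cdkn1b were each lost without any 1 of the 3 PGWAT arrays of their genotype (limma adjusted p = 0.0511 to 0.163, 0.113 to 0.139 and 0.0509 to 0.216). The list had medians of 0.13 and 0.04.

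Among the E proteins that Id2 and Id3 bind, Tcf4 and Tcf12 were kept of 3 listed. Tcf4, the E protein of plasmacytoid dendritic cells that stromal cells also make, was higher in PGWAT, at 7.94 against 4.85 in control mice (3.09 ± 0.40, limma adjusted p = 0.000273) and 6.85 against 4.71 in Tbet flox mice (2.14 ± 0.40, adjusted p = 0.00561). The second call was lost without PGWAT Tbet flox 1 (1.81, limma adjusted p = 0.064). In spleen Tcf4 was close to background, above it on 2 of 3 arrays of each genotype, and without background correction the differences were 1.65 and 0.95 and passed. In control mice 5 of 6 kept markers of stroma and endothelium and 4 of 7 of dendritic cells were higher in PGWAT. In Tbet flox mice 4 and 3 were. The part of these cells in the Tcf4 difference was not tested. Tcf12 measured 8.50 in PGWAT control and 8.01 in spleen control and did not pass.

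All 9 listed partners and targets of TCF and LEF factors were kept. In control mice Tle4, a corepressor that binds Lef1, was lower in PGWAT (-1.19 ± 0.34, limma adjusted p = 0.0324), and it lost that call without PGWAT control 1 (0.1) or 3 (0.223) or PGWAT Tbet flox 2 (0.0504). Its other 2 kept probes measured 1.16 and 0.86 higher, so its probes disagree. In Tbet flox mice 0 passed, with Myc at 0.68 (limma adjusted p = 0.309) and Tle3 at 0.52 (0.49). For Ctnnb1, which codes for beta-catenin, the dimmest of 4 probes was lower in PGWAT in Tbet flox mice (-1.44, limma adjusted p = 0.0195, named after its value was seen), and the other 3 measured -0.04, 0.06 and 0.11 and did not pass. Of 13 relatives of the 7 factors 6 were kept. Id1, another member of the Id family that endothelial cells make, and Bach1 were higher in PGWAT in control mice, Id1 by at least 3.22-fold (limma adjusted p = 0.0101), since it was not above background on any spleen control array, and Bach1 by 1.66 ± 0.38 (0.0111). Without background correction both passed, with differences of 0.87 and 0.81. Without PGWAT control 1 the call of Id1 was lost (limma adjusted p = 0.0819), and without PGWAT control 3 that of Bach1 (0.0771). In Tbet flox mice 0 relatives passed.

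The genes with the pattern most like each factor were sought among 10881 other named genes by Pearson correlation of log2 levels over the 12 arrays, each gene by its brightest probe. The arrays fall into 2 tissues, so the values within the 6 arrays of each tissue are given as well, and all are descriptions. For Lef1 these were Armc10 (0.99; 0.97 in PGWAT and 0.92 in spleen), the lymphocyte receptor gene Slamf6 (0.98; 0.91 and 0.77) and the folate enzyme gene Fpgs (0.98; 0.94 and 0.72). Bcl7a (0.96; 0.87 and 0.95) and Zbtb18 (0.95; 0.85 and 0.65) came closest to Satb1, and Calhm6 (0.94) did so with 0.93 in PGWAT and -0.73 in spleen. Id2 was closest to Nabp1 (0.96; 0.72 and 0.82), Slc66a2 (0.94; 0.70 and 0.48) and the cAMP response gene Crem (0.94; 0.88 and 0.40). Psmc5 (0.95), the T cell kinase gene Prkcq (0.94) and Zbtb18 (0.93) came closest to Foxo1, with 0.77 to 0.90 in PGWAT and 0.55 to 0.94 in spleen. Fnbp4 (0.95), Dnttip1 (0.94) and AI504432 (0.94) came closest to Foxp1, with 0.93 to 0.96 in PGWAT and 0.37 to 0.76 in spleen. The dim Bach2 probe was closest to 4933427D14Rik (0.96; 0.97 and 0.72), the deacetylase gene Hdac3 (0.93; 0.96 and 0.31) and Olfr298 (0.93; 0.90 and 0.80). Id3 was closest to Dram2 (0.92; 0.92 and 0.97), Lancl3 (0.89; 0.94 and 0.62) and Stk39 (0.88; 0.91 and 0.77).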

How the data were processed

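RNA of Tregs from PGWAT and spleen was read on 12 Illumina arrays, 3 for each tissue and genotype, grouped by titles and genotype labels. Per the labels' protocols, RNA from Qiagen Allprep was amplified with NuGen Ovation Pico WTA and labelled with NuGen Encore Biotin IL. Per the file headers, the deposited table of non-normalized values gives the mean bead intensity of each probe on each array. Beside each intensity the authors deposited a detection p-value, which compares the probe with the negative controls of its array. Per the submitters' processing notes GenomeStudio was used, with no version given. The authors' processed table of intensities, whose 12 column medians lie between 98 and 98.1 on a linear scale, served for an alternative after log2.

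Intensities were background corrected from the detection p-values, quantile normalized and put on a log2 scale with neqc (offset 16) of limma 3.58.1 in R 4.3.3. Probes with a detection p under 0.05 on at least 3 arrays were kept (22833 of 45281). Of all probes, 34885 carried 1 symbol, 18 several and 10378 none. Group means were fitted to all 12 arrays with 1 weight for each tissue (0.312 for a PGWAT array and 3.21 for a spleen array), since on simulated data a fit with equal weights made many false calls for genotype in PGWAT. The weighted fit found few of the changes put in there, made more false calls for genotype in spleen, and found fewer of the small changes between tissues. There were 8 residual and 13.41 moderated degrees of freedom. Tests were two-sided, with Benjamini-Hochberg adjustment over all kept probes and a threshold of 0.05.

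The text names every probe of the 7 factors. It also names up to 4 members of each of 6 gene lists past the threshold, or otherwise up to 2 with the smallest p, and for each factor the 3 genes most correlated with it. Not all of these are printed. The other 10 lists are cell type markers. The factors, lists and tests were chosen with earlier results of these data known. The alternatives were equal weights, 1 weight for each array, the groups compared alone, median scaling, no background correction, the authors' table, no filter and a filter at a detection p under 0.01, the brightest probe for each gene, a replicate block, and leaving out each array. Leaving out 2 PGWAT arrays together was added after seeing the data. Promoter sequences are those of RefSeq for GRCm38.p6, where all 7 symbols matched.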

Additional observations from a re-analysis of the deposited data

How the results depend on the processing

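Of 65 differences of the 7 factors (13 probes in 5 comparisons) 11 passed, 0 of these changed sign in up to 23 settings, and 2 passed in every setting (Lef1 probe 1 and Id2 probe 1 in control mice). Of the 54 others, 45 passed in no setting and 20 changed sign in some. The 5 calls between tissues in control mice became 3 with 1 weight for each array, 3 with no filter, and 2 to 6 without 1 array. The 6 in Tbet flox mice became 0 to 7 without 1 array. Without PGWAT control 1 and PGWAT Tbet flox 3 together, the 5 and 6 calls became 2 and 0. With the brightest probe for each gene, 3 passed in control and 3 in Tbet flox mice. That setting has only 1 probe for each of the 7 factors, and the probes that passed in the main fit kept their calls in it. For genotype in spleen the 0 calls became 1 with a weight for each array (Id2 probe 1), 2 without background correction and 2 by the authors' table (Id2 probe 1 and Lef1 probe 4), and 0 to 2 without 1 array.

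Over all probes, the 44 calls for genotype in PGWAT became 823 with equal weights, 0 in the groups alone, 8 with median scaling, 77 with no filter, 14 with the stricter filter and 6 to 79 without 1 array. The 359 for genotype in spleen became 0 with equal weights, 16 in the groups alone, 879 with a weight for each array, 160 with median scaling, 686 without background correction, 674 by the authors' table, 58 with no filter and 8 to 563 without 1 array. The 3150 between tissues in control mice became 2048 to 3079 without 1 array, and the 1970 in Tbet flox mice became 3119 with a weight for each array and 747 to 2258 without 1 array. The 12 for the genotype effect between tissues became 28 with equal weights, 20 with a weight for each array, 24 without background correction, 24 by the authors' table, 47 with no filter, 7 with the stricter filter and 2 to 69 without 1 array. Without the 2 PGWAT arrays, 2, 1934, 1089 and 1 passed for genotype in PGWAT, tissue in control, tissue in Tbet flox and the genotype effect. The causes were not tested.

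With the replicate block, 3 probes of the factors passed between tissues in control mice and 5 in Tbet flox mice, and over all probes 4 passed for genotype in PGWAT, 22 for genotype in spleen and 2 for the genotype effect between tissues. No pairing by the replicate numbers of the titles was seen: deviations of same-numbered arrays correlated between -0.194 and 0.0674 in 12 pairs, and 4 of 12 arrays correlated best with their own number. With 3 arrays per group this cannot show that same-numbered samples were unrelated. Median scaling moved the median of all probes between tissues in Tbet flox mice from -0.08 to -0.24 and for the genotype effect from 0.02 to -0.10, and turned higher and lower calls in that tissue comparison from 894 and 1076 to 672 and 1603. Without background correction 19 of the 36 calls of factors and listed genes moved by over 1.5 times, all of them smaller, among them Prdm1 (1.65) in control and Gata3 (1.14) and Irf4 (1.02) in Tbet flox mice, and 4 were lost (Foxo1 and Dapl1 in control, Lef1 probe 4 and Dapl1 in Tbet flox mice). Of the 25 calls of listed genes, 8 held in every setting and 17 were lost without at least 1 array. The precision was limited by 3 arrays per group and by the spread of the PGWAT arrays. Signals near background limited it for Bach2, Foxo1, the second Satb1 probe and, in PGWAT, Lef1 probes 3 and 4.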

Other observations

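Probes of 1 gene followed each other more closely among the spleen arrays than among the PGWAT arrays for Lef1. Over the 6 spleen arrays the 6 pairs of Lef1 probes correlated between 0.61 and 0.96, and over the 6 PGWAT arrays between -0.56 and 0.53. The 3 pairs of Id2 probes correlated between 0.41 and 0.83 in spleen and between 0.30 and 0.95 in PGWAT. These are descriptions over 6 arrays, and the probes of a gene share the amplified RNA of each array.

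Of the 4 kept mast cell markers, 1 differed between the PGWAT groups. The 4 summed to 107 to 154 in PGWAT control and 231 to 688 in PGWAT Tbet flox. Cpa3, a mast cell protease gene, was higher in Tbet flox (4.92 in control and 7.71 in Tbet flox, limma adjusted p = 0.0395). Its probe was above background on 1 of 3 PGWAT control arrays. Cma1 measured 1.34 higher (limma adjusted p = 0.464), Mcpt4 0.40 higher (0.898) and Fcer1a -0.10 (0.994), and these did not pass. Neither Cpa3 nor Cma1 was above background on any spleen Tbet flox array, against which they were at least 7.79-fold and at least 2.59-fold higher in PGWAT Tbet flox (limma adjusted p = 0.000108 and 0.0223). Both were named after their values were seen.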
